A study of Rhododendron with 15 samples.

Results

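The MYB genes of the leaf were followed through heat and melatonin treatment in 'xiaotaohong', an ornamental Rhododendron. A gene was taken as a member when its description in the deposited table contained MYB in upper or lower case and no words of the bHLH, WRKY or DnaJ families. Of 110 such genes, 1 was left out because its KEGG column named the circadian rhythm or the spliceosome pathway. The remaining 109 of 29985 genes are described here. The choice rests on descriptions alone, and a few members are therefore not MYB factors. In 3 of them the description reads target of Myb, the name of an adaptor protein family that sorts vesicle cargo.

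MYB proteins bind DNA through 1 or more MYB repeats, each folded as a helix-turn-helix. In plants, those with an R2 and an R3 repeat form the largest class, and they control phenylpropanoid and flavonoid synthesis, epidermal cell fate, cuticular wax, stomata and responses to abscisic acid. R3 proteins with a single repeat compete with R2R3 activators for bHLH partners, and the GARP and MYB-CC types carry a MYB-like domain and take part in phosphate signalling, vascular development and flowering. Numbers in MYB names were given separately in each species, so a number such as MYB25 does not by itself identify the Arabidopsis gene of that number.

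PolyA RNA of leaves was sequenced in 5 groups of 3 libraries. Plants without melatonin were kept at 25 °C, 35 °C or 40 °C, and plants given melatonin, an indole compound made from tryptophan, were kept at 35 °C or 40 °C. The variety and the tissue were the same in all groups. Plant age, melatonin dose, hours of heat and harvest time are not stated in the labels, and the labels do not say whether replicates were separate plants. The p-values therefore measure the spread between these libraries, which may be technical.

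Library totals were between 54300447 and 68267949 counts. As a check of the tissue, the FPKM (fragments per kilobase of transcript, scaled to sequencing depth) of 12 leaf mesophyll genes, chlorophyll-binding proteins and Rubisco activases, summed to between 19745 and 20690 in the 25 °C libraries. None of these genes was at 0 in all libraries. The same sum was between 2692 and 2721 at 40 °C and between 14263 and 14408 at 40 °C with melatonin. Of 13 genes of dividing cells 8 were tested, and 1 was higher and 4 were lower at 40 °C than at 25 °C (12.5% and 50.0%, against 37.3% and 38.6% of all tested genes). The higher gene, MSTRG.2475, is a locus that merges a KNOLLE-like gene with a gene of another description, so their counts cannot be told apart. In bulk leaf RNA, fewer cells of a type and less RNA per cell cannot be told apart.

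The 109 members lay on all 13 chromosomes of the table, with 13 each on chromosomes 1 and 3, and 5 members on unplaced contigs. Coordinates are those of the table, which names no genome build. Many were weakly expressed. A mean under 1 FPKM in every group was found for 41, and 86 had enough counts to be tested. The untested 23 had too few counts for a comparison. Members with a mean of at least 1 FPKM numbered 55 at 25 °C, 53 at 35 °C, 48 at 40 °C, 57 at 35 °C with melatonin and 53 at 40 °C with melatonin. The summed FPKM of all members was 1321 ± 5.80 (SD, n = 3) at 25 °C, 1434 ± 52.0 at 35 °C and 2082 ± 14.4 at 40 °C. With melatonin it was 1391 ± 7.18 at 35 °C and 1400 ± 5.73 at 40 °C. A single gene, MSTRG.17777, made up 7.23 to 7.51% of that sum in the 25 °C libraries, 31.0 to 32.4% at 40 °C and 25.0 to 25.6% at 40 °C with melatonin.

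Most tested members were called at 40 °C, in both directions, at about the rate of the genes in general, and fewer were called at 35 °C. At 40 °C against 25 °C, 65 of 86 tested members were called by edgeR's quasi-likelihood test at an adjusted p under 0.05, where 75.9% of all 26183 tested genes were called. Of these members 29 were higher (37.3% of all genes) and 36 lower (38.6%), and the change was at least 2-fold in 24 (24.4%) and 27 (25.9%). The median log2 fold change was -0.18 over the members and -0.01 over all tested genes. At 35 °C against 25 °C, 41 members were called (49.1% of all genes), 23 higher (25.5%) and 18 lower (23.6%). From 35 °C to 40 °C the count was 61 (69.3%), with 31 higher (32.8%) and 30 lower (36.5%). A member passed the filter if any group held enough counts, so members high in 1 group had to differ, and these counts describe the tested members alone.

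At 35 °C fewer members were called with melatonin than with heat. With melatonin at 35 °C, 19 members were called (22.0% of all genes), 7 higher (9.70%) and 12 lower (12.3%), a split that turned to 14 higher and 8 lower with limma on log2(FPKM + 1) and to 12 and 7 on log2(FPKM + 0.1). At 40 °C, melatonin changed 47 members (59.1%), 20 higher (32.9%) and 27 lower (26.2%), and this split also turned on the FPKM scales, to 24 and 20 and to 26 and 20. The FPKM scale with a pseudocount of 1 put the median of all genes at 0.23 for melatonin at 40 °C, against 0.10 in the count fit, so directions of the whole set depend on the scaling. The melatonin effect at 40 °C differed from that at 35 °C for 40 members (48.5%), with the effect at 40 °C the higher one in 17 (27.2%) and the lower one in 23 (21.3%). The untreated 40 °C libraries enter both the heat and the melatonin comparison at 40 °C, so the values of both are given side by side.

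**Figure D1:**
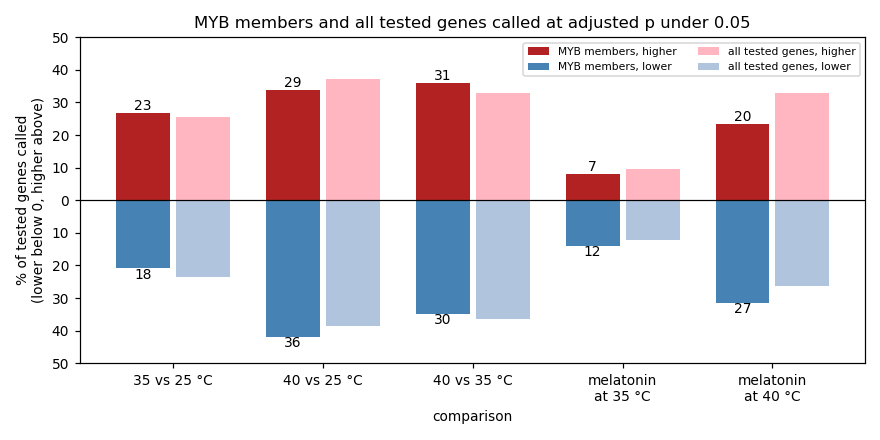
Share of the 86 tested MYB members called higher and lower in each comparison (edgeR, adjusted p under 0.05), in percent, beside the share of all 26183 tested genes. At 40 °C against 25 °C, 29 members were higher and 36 lower, and at 35 °C with melatonin against 35 °C, 7 were higher and 12 lower.

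Among the members annotated to stress and hormone responses, the one with the highest mean level over all libraries rose with heat and was lower with melatonin at 40 °C. Described as MYB25, MSTRG.17777 (chromosome 10, 15873143 to 15874141, minus strand) is annotated to responses to abscisic acid, ethylene, salicylic acid and jasmonic acid. Its FPKM was 95.0, 99.4 and 96.3 at 25 °C, 136, 120.5 and 124 at 35 °C and 641, 669.8 and 678 at 40 °C. In the melatonin libraries the values were 139, 142 and 151 at 35 °C and 349, 359.6 and 352 at 40 °C. The 40 °C libraries were the highest, those at 40 °C with melatonin came next, and neither overlapped any other group. The log2 fold change was 2.86 ± 0.05 at 40 °C against 25 °C (edgeR, adjusted p = 1.1e-15) and 0.33 ± 0.05 at 35 °C (adjusted p = 4.44e-05). Melatonin at 40 °C gave -1.10 ± 0.05 (adjusted p = 6.7e-11), and at 35 °C 0.08 ± 0.05, which was not called by edgeR (adjusted p = 0.304). The difference between these melatonin effects was -1.17 ± 0.07 on the log2 scale (edgeR, adjusted p = 2.97e-09).

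A second member, at or near 0 in the other groups, was counted at 40 °C without melatonin. The gene MSTRG.8135 (chromosome 4, 38269843 to 38272212, minus strand) is described as MYB108-like and annotated to responses to fungus, salt, jasmonic acid and abscisic acid, and MYB108 of Arabidopsis is known from defence against infection. Its FPKM was 0, 0 and 0 at 25 °C, 0, 0.124 and 0.157 at 35 °C and 16.7, 19.8 and 19.8 at 40 °C. With melatonin the libraries gave 0.239, 0.137 and 0 at 35 °C and 0, 0 and 0 at 40 °C. The 3 libraries at 40 °C were all above 10 FPKM, and no other library reached 1. Set against a floor of 3 counts per library, the level at 40 °C was at least 514-fold higher than at 25 °C (edgeR, adjusted p = 2.88e-06). With melatonin at 40 °C it was at least 560-fold lower than without (edgeR, adjusted p = 4.83e-06). Another MYB108 gene, Rhsim02G0001800, had means of at most 0.302 FPKM in every group.

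The gene MSTRG.14548, described only as MYB, had a like course at a lower level. Its FPKM was 0, 0 and 0 at 25 °C, 0.258, 0.395 and 0.785 at 35 °C and 8.81, 9.18 and 8.61 at 40 °C. Libraries with melatonin gave 0.384, 0.509 and 0.512 at 35 °C and 0.969, 0.977 and 1.24 at 40 °C. It had no counts at 25 °C, was at least 312-fold higher at 40 °C against the same floor (edgeR, adjusted p = 1.12e-09) and fell by 3.24 on the log2 scale with melatonin at 40 °C (adjusted p = 1.77e-06). By contrast MSTRG.7491, annotated to ethylene and salicylic acid responses, rose from 2.85 ± 0.139 FPKM (SD, n = 3) at 25 °C to 6.27 ± 0.492 at 35 °C and 20.9 ± 0.433 at 40 °C, and stood at 16.2 ± 0.915 at 40 °C with melatonin. Its log2 fold change was 2.97 ± 0.07 at 40 °C against 25 °C (edgeR, adjusted p = 2.68e-14) and -0.57 ± 0.06 with melatonin at 40 °C (adjusted p = 2.85e-06).

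The Myb-related gene MSTRG.4536 (chromosome 3, 7652222 to 7653826, plus strand), annotated to stomatal movement, water deprivation and abscisic acid, went the other way. Its FPKM was 25.7, 23.2 and 21.8 at 25 °C, 25.5, 26.0 and 27.4 at 35 °C and 0.876, 1.16 and 0.946 at 40 °C. The melatonin libraries gave 24.8, 23.3 and 22.0 at 35 °C and 3.79, 4.08 and 2.93 at 40 °C. All 9 libraries at 25 °C, 35 °C and 35 °C with melatonin lay above 20 FPKM, and all 6 libraries at 40 °C lay below 5. The log2 fold change was -4.47 ± 0.14 at 40 °C against 25 °C (edgeR, adjusted p = 6.01e-13) and 1.66 ± 0.14 with melatonin at 40 °C (adjusted p = 8.58e-08). At 35 °C melatonin gave -0.27 ± 0.12, not called by edgeR (adjusted p = 0.114), and the difference of effects was 1.93 ± 0.18 (adjusted p = 5.56e-07). Of 6 guard cell genes, 5 were tested, and 2 were higher and 2 lower at 40 °C against 25 °C (40.0% each, against 37.3% and 38.6% of all tested genes). Their summed FPKM was 125 to 133 at 25 °C, 295 to 379 at 40 °C and 108 to 110.2 at 40 °C with melatonin, and none was at 0 in all libraries. The anion channel of guard cells among them, MSTRG.12497, had means of 7.24 FPKM at 25 °C and 0.776 at 40 °C, and the aspartic protease gene MSTRG.14567 had 43.7 and 0.817. The other aspartic protease gene, MSTRG.16166, went the opposite way, from 3.39 to 236 FPKM, and made up most of the summed rise. The kinase gene SRK2E, MSTRG.8784, which acts in abscisic acid signalling, rose from 73.1 to 111 FPKM. Their part in the level of MSTRG.4536 was not tested.

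A member annotated to wax control was lowest at 40 °C with melatonin. The gene MSTRG.14683 (chromosome 8, 23389597 to 23390927, minus strand) is annotated to positive regulation of wax synthesis and to abscisic acid signalling. Its FPKM was 12.6, 13.7 and 14.7 at 25 °C, 24.8, 20.7 and 23.2 at 35 °C and 16.6, 14.8 and 14.0 at 40 °C. Libraries with melatonin gave 18.6, 20.9 and 20.5 at 35 °C and 3.82, 3.02 and 3.82 at 40 °C. The 3 libraries at 40 °C with melatonin were the lowest of all 15, with no overlap. The log2 fold change with melatonin was -2.28 ± 0.12 at 40 °C (edgeR, adjusted p = 4.82e-10) and -0.30 ± 0.11 at 35 °C (adjusted p = 0.0648, not called), and these effects differed by -1.98 ± 0.16 (adjusted p = 1.2e-07). Heat alone gave 0.69 ± 0.11 at 35 °C (edgeR, adjusted p = 0.000119) and 0.24 ± 0.11 at 40 °C (adjusted p = 0.0618, not called). Of 28 wax elongation genes (ketoacyl-CoA synthases and CER types), 25 were tested. At 40 °C against 25 °C, 4 of them rose and 18 fell (16.0% and 72.0%, against 37.3% and 38.6% of all tested genes). Their median log2 fold change was -2.64 with genes at 0 counts in a group held to the floor of 3 counts per library, and -3.88 as fitted, against a fitted -0.01 over all tested genes. With melatonin at 40 °C, 4 rose and 6 fell (16.0% and 24.0%, against 32.9% and 26.2% of all tested genes), and their summed FPKM was 86.1 to 92.7 there against 87.5 to 96.8 without melatonin.

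Members were placed only in the first role group whose words matched, so stress or hormone terms also occur in other groups, as in MSTRG.15182. The stress and hormone group held 25 members and 17 were tested. At 40 °C against 25 °C, 8 of these rose and 6 fell (47.1% and 35.3%, against 37.3% and 38.6% of all tested genes). With melatonin at 40 °C, 2 rose and 8 fell (11.8% and 47.1%, against 32.9% and 26.2% of all tested genes). The gene MSTRG.21018, annotated to gibberellin and jasmonic acid responses, was among those that fell with heat, from 7.99 ± 1.93 FPKM at 35 °C to 0.801 ± 0.765 at 40 °C (SD, n = 3; edgeR, adjusted p = 3.7e-05). Near-constant levels also occurred: the GAMYB-like gene Rhsim13G0203700, whose namesake in barley acts in gibberellin signalling, had means of 3.95 to 4.71 FPKM across the 5 groups. Its log2 fold change at 40 °C against 25 °C was 0.24 ± 0.12 (edgeR, adjusted p = 0.0821), and without replicate 2 of the 25 °C group it was called (adjusted p = 0.0144).

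**Figure D2:**
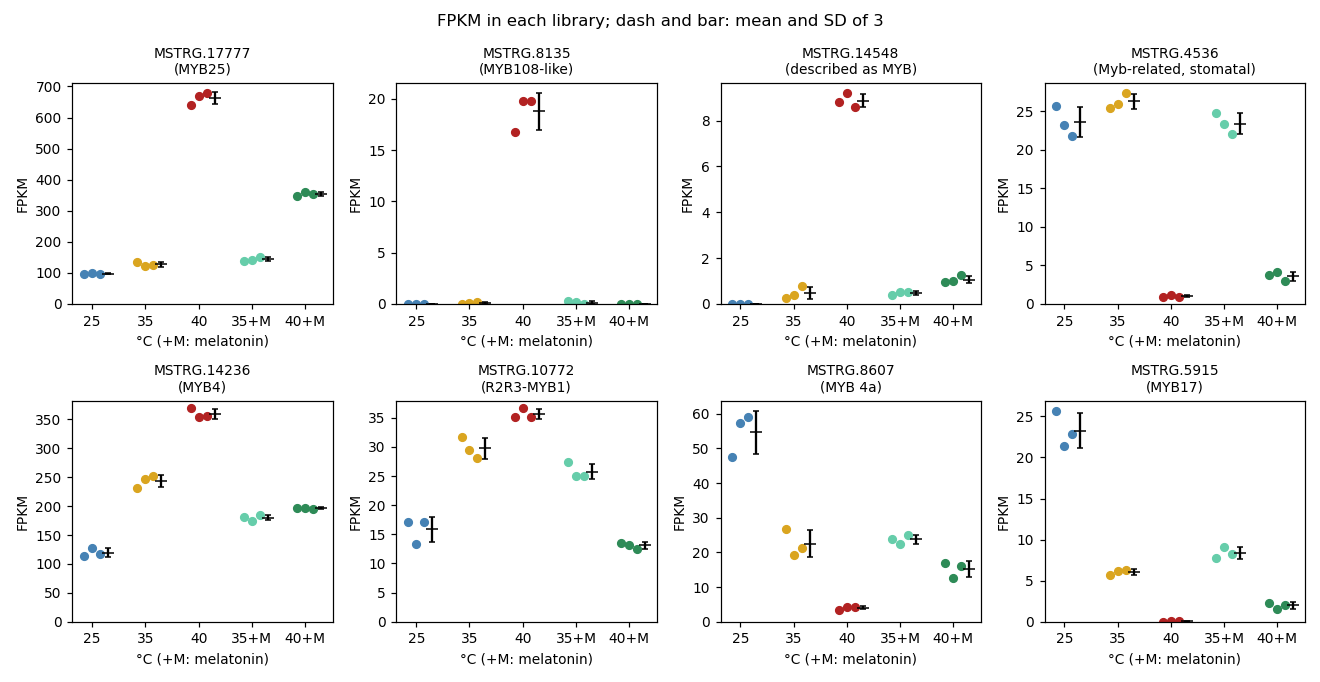
FPKM of selected MYB members in each of the 15 libraries (points) with the mean and SD of the 3 libraries of each group (dash and bar), by temperature and melatonin. The 40 °C libraries of MSTRG.17777 and MSTRG.8135 stand above all others, and those of MSTRG.4536 below.

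Members annotated to flavonoid and phenylpropanoid control moved in both directions at 40 °C. All 9 members placed in this role group were tested, and 3 rose and 5 fell at 40 °C against 25 °C (33.3% and 55.6%, against 37.3% and 38.6% of all tested genes). Under melatonin at 40 °C, 3 were higher and 2 lower (33.3% and 22.2%, against 32.9% and 26.2% of all tested genes). The second most abundant member, MSTRG.14236 (chromosome 8, 9360205 to 9362878, plus strand), is described as MYB4 and annotated to cinnamic acid synthesis and to negative regulation of metabolism, and MYB4 of Arabidopsis is a repressor of phenylpropanoid genes. Its FPKM was 113, 128 and 117 at 25 °C, 232, 247 and 253 at 35 °C and 369, 354 and 356 at 40 °C. With melatonin the values were 181, 175 and 185 at 35 °C and 197, 196 and 194 at 40 °C. The levels rose in the order of the temperatures without overlap, and at each temperature the libraries with melatonin were below those without. Relative to 25 °C, the log2 fold change was 0.97 ± 0.04 at 35 °C and 1.68 ± 0.04 at 40 °C (edgeR, adjusted p = 2.42e-10 and 8.21e-14). Melatonin gave -0.54 ± 0.04 at 35 °C and -1.07 ± 0.04 at 40 °C (edgeR, adjusted p = 5.84e-07 and 3.5e-11), and these effects differed by -0.53 ± 0.06 (adjusted p = 5.3e-06).

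In 4 members the annotation reads negative regulation of sinapate ester synthesis, and their heat responses differed. The R2R3-MYB1 gene MSTRG.10772 (chromosome 6, 16249352 to 16257318, minus strand) had FPKM of 17.1, 13.3 and 17.1 at 25 °C, 31.6, 29.5 and 28.1 at 35 °C and 35.1, 36.7 and 35.2 at 40 °C. The libraries with melatonin gave 27.3, 24.9 and 25.1 at 35 °C and 13.6, 13.2 and 12.5 at 40 °C. The 6 untreated heat libraries were above the 3 at 25 °C, and the melatonin libraries at 40 °C were below all 6 and overlapped those at 25 °C. It rose by 1.26 ± 0.09 (log2) at 40 °C (edgeR, adjusted p = 1.15e-08) and changed by -1.64 ± 0.09 with melatonin there (adjusted p = 1.71e-09).

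The gene MSTRG.8607 (chromosome 5, 8620865 to 8622609, plus strand), described as MYB domain protein 4a, went down over the same libraries. Its FPKM was 47.5, 57.2 and 59.1 at 25 °C, 26.9, 19.4 and 21.1 at 35 °C and 3.53, 4.22 and 4.30 at 40 °C. With melatonin it was 23.9, 22.4 and 25.1 at 35 °C and 17.0, 12.6 and 16.1 at 40 °C. It was lower at each higher temperature without overlap, and the 40 °C libraries with melatonin were above those without. The log2 fold change was -3.67 ± 0.16 at 40 °C against 25 °C (edgeR, adjusted p = 1.86e-11) and 1.73 ± 0.15 with melatonin at 40 °C (adjusted p = 1.42e-07). At 35 °C melatonin gave -0.02 ± 0.14 (edgeR, adjusted p = 0.949). The next, MSTRG.16091, peaked at 35 °C with 10.7 ± 0.208 FPKM (SD, n = 3) and had 1.11 ± 0.153 at 40 °C and 1.15 ± 0.368 at 40 °C with melatonin. Melatonin lowered it at 35 °C, with a log2 fold change of -0.73 ± 0.18 (edgeR, adjusted p = 0.00962), a call lost without replicate 2 of that melatonin group (adjusted p = 0.0503). The fourth, Rhsim11G0191600, a described repressor, was low throughout, with 1.47 ± 0.368 FPKM at 25 °C and no counts at 40 °C.

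The strongest fall in a well-counted member was that of MSTRG.5915 (chromosome 3, 35081035 to 35083818, minus strand), described as MYB17 and annotated to regulation of flavonol synthesis. Its FPKM was 25.6, 21.3 and 22.8 at 25 °C, 5.63, 6.18 and 6.35 at 35 °C and 0, 0.0429 and 0.0861 at 40 °C. The melatonin libraries gave 7.71, 9.10 and 8.30 at 35 °C and 2.32, 1.55 and 2.06 at 40 °C. Libraries fell group by group from 25 °C to 40 °C, and those at 40 °C with melatonin lay above those at 40 °C without. Only 12 counts over 3 libraries remained at 40 °C, so the log2 fold change of -8.81 ± 0.37 against 25 °C is imprecise in size (edgeR, adjusted p = 1.31e-11). Melatonin gave 5.17 ± 0.37 at 40 °C (edgeR, adjusted p = 1.9e-08) and 0.36 ± 0.23 at 35 °C (adjusted p = 0.299, not called).

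A pair of weak members were higher with melatonin at 35 °C than in any other group. The MYB5d gene Rhsim07G0002700 had FPKM of 3.44, 3.06 and 2.64 at 35 °C with melatonin, against 0, 0.0719 and 0.125 at 35 °C without, a log2 fold change of 5.30 ± 1.31 (edgeR, adjusted p = 0.011). MYBPA1, Rhsim01G0174700, whose namesake in grapevine activates proanthocyanidin genes, had 0.766, 1.41 and 1.07 FPKM with melatonin at 35 °C. It had no counts at 35 °C without melatonin, and against 3 counts per library the level was at least 28.4-fold higher (edgeR, adjusted p = 0.000719).

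Enzyme genes of flavonoid and phenylpropanoid synthesis fell more often than they rose at 40 °C. Whether any member controls them was not tested. Of 51 flavonoid and anthocyanin enzyme genes 44 were tested, and 11 rose and 23 fell at 40 °C against 25 °C (25.0% and 52.3%, against 37.3% and 38.6% of all tested genes), with a median log2 fold change of -0.82. With melatonin at 40 °C, 19 were higher and 10 lower (43.2% and 22.7%, against 32.9% and 26.2% of all tested genes). Chalcone synthase, MSTRG.2638, had means of 189 FPKM at 25 °C, 4.83 at 40 °C and 23.1 at 40 °C with melatonin. Flavonol synthase, MSTRG.10903, had 54.0, 5.48 and 12.1. By description words, 18 genes were matched to general phenylpropanoid synthesis. Most of them are described only as 4-coumarate-CoA ligase-like, which does not place a gene in the pathway. Of these genes 17 were tested, with 4 higher and 10 lower at 40 °C against 25 °C (23.5% and 58.8%), beside the same shares of all genes. With melatonin at 40 °C, 7 were higher and 3 lower (41.2% and 17.6%), again beside those shares. An exception was cinnamate 4-hydroxylase MSTRG.1855, at 12.3, 68.8 and 119 FPKM in the same groups. Of 4 genes matched by words for the MYB-bHLH-WD40 complex 3 were tested. At 40 °C against 25 °C, 1 was higher and 0 were lower (33.3% and 0.0%, against 37.3% and 38.6% of all tested genes). The higher one, the WD40 gene TTG1, MSTRG.16935, had means between 25.3 and 37.5 FPKM. The other tested genes are a pair described as anthocyanin regulatory C1, which is a MYB of maize and not a partner of MYB factors. They are not members because their descriptions lack the word. One of these, Rhsim08G0238300, had 1.13 ± 0.450 FPKM at 40 °C and 5.15 ± 0.817 with melatonin there (SD, n = 3; edgeR, adjusted p = 0.000776). The other, RhsimUnG0192300, went the opposite way at a low level, from 0.349 ± 0.139 FPKM to no counts (edgeR, adjusted p = 0.00203).

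Both R3 members were lower at 40 °C and higher again with melatonin. The gene MSTRG.11161 (chromosome 6, 26276472 to 26284273, plus strand) is described as ETC3, which in Arabidopsis inhibits trichome formation and promotes root hairs. Its FPKM was 37.8, 42.2 and 40.0 at 25 °C, 28.8, 28.8 and 28.8 at 35 °C and 12.7, 12.1 and 11.8 at 40 °C. With melatonin the libraries gave 32.7, 33.3 and 35.1 at 35 °C and 24.3, 23.1 and 21.9 at 40 °C. The level fell by group with temperature, without overlap, and at 40 °C the libraries with melatonin were all above those without. By log2 fold change it moved -1.62 ± 0.05 at 40 °C against 25 °C (edgeR, adjusted p = 9.05e-13) and 0.73 ± 0.05 with melatonin at 40 °C (adjusted p = 1.96e-08). The other, MSTRG.3160, first rose, from 4.35 ± 0.300 FPKM at 25 °C to 10.1 ± 1.66 at 35 °C, and then fell to 0.267 ± 0.103 at 40 °C (SD, n = 3). Its log2 fold change was 1.15 ± 0.22 at 35 °C and -3.90 ± 0.27 at 40 °C against 25 °C (edgeR, adjusted p = 0.000594 and 5.38e-09), and 1.87 ± 0.27 with melatonin at 40 °C (adjusted p = 3.37e-05). By description words, 66 genes were matched to the epidermis. They include general lipid enzymes, such as a peroxisomal acyl-CoA synthetase (MSTRG.7848), so the list does not mark the epidermis alone. Of these genes 53 were tested, and 7 rose and 30 fell at 40 °C against 25 °C (13.2% and 56.6%, against 37.3% and 38.6% of all tested genes). Their summed FPKM was 1060.3 to 1184 at 25 °C, 355 to 381 at 40 °C and 468 to 484 at 40 °C with melatonin, and 1 was at 0 in all libraries. A pair of lipid-transfer genes made up most of the fall in the sum at 40 °C. These were MSTRG.17500, from 309 to 0.527 FPKM, and MSTRG.17502, from 206 to 1.39. The part of the listed genes in the R3 levels was not tested.

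Most tested GARP and MYB-CC members fell at 40 °C, while both PHL7 genes rose. Of 15 members 14 were tested, and 2 rose and 9 fell at 40 °C against 25 °C (14.3% and 64.3%, against 37.3% and 38.6% of all tested genes). Melatonin at 40 °C gave 5 higher and 4 lower (35.7% and 28.6%, against 32.9% and 26.2% of all tested genes). PHL proteins belong to the phosphate starvation response family in Arabidopsis. The PHL7 gene MSTRG.2952 (chromosome 2, 13766035 to 13771689, minus strand) had FPKM of 11.4, 21.2 and 19.6 at 25 °C, 35.9, 36.1 and 34.2 at 35 °C and 116, 113 and 115 at 40 °C. Libraries with melatonin gave 31.4, 30.7 and 30.0 at 35 °C and 33.0, 34.9 and 33.9 at 40 °C. The 40 °C libraries were the highest of the 15, and with melatonin at 40 °C the level was within the range of the 35 °C groups. Its log2 fold change was 2.81 ± 0.16 at 40 °C against 25 °C (edgeR, adjusted p = 3.56e-10) and -1.95 ± 0.15 with melatonin at 40 °C (adjusted p = 3.91e-08). The second PHL7 gene, MSTRG.24677, on an unplaced contig, had 29.5 ± 1.57 FPKM at 25 °C, 66.0 ± 2.65 at 40 °C and 32.8 ± 0.161 at 40 °C with melatonin (SD, n = 3), and its log2 fold changes in the same comparisons were 1.25 ± 0.07 and -1.20 ± 0.07 (edgeR, adjusted p = 4.71e-10 and 1.99e-09). The PHL7 genes share a description, but their sequences were not compared. If they are close copies, reads may be split between them.

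Among GARP and MYB-CC members with a mean of at least 2 FPKM at 25 °C, the fall was deepest in MSTRG.18695, described as a Myb family transcription factor, from 27.9 ± 0.737 FPKM at 25 °C to 10.2 ± 0.646 at 35 °C and 3.67 ± 0.806 at 40 °C (SD, n = 3). The weak member Rhsim03G0145500 had a larger fitted fall but means of only 0.391 FPKM at 25 °C and 0.0250 at 40 °C (edgeR, adjusted p = 0.0353). Melatonin raised MSTRG.18695 at both temperatures, by 0.81 ± 0.12 at 35 °C and 1.19 ± 0.12 at 40 °C on the log2 scale (edgeR, adjusted p = 0.000193 and 1.08e-06). A low member, MSTRG.4238, rose from 0.805 ± 0.291 FPKM at 25 °C to 4.23 ± 0.672 at 35 °C and stood at 0.112 ± 0.0454 at 40 °C and 1.92 ± 0.609 at 40 °C with melatonin. The rise at 35 °C was 2.33 ± 0.30 on the log2 scale (edgeR, adjusted p = 1.7e-05).

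The APL gene MSTRG.11775 (chromosome 6, 36568728 to 36571045, plus strand), required for phloem identity in Arabidopsis and annotated here to phloem and xylem development, was low in the untreated 40 °C libraries alone. Its FPKM was 11.4, 11.3 and 11.0 at 25 °C, 9.10, 9.39 and 11.4 at 35 °C and 2.60, 2.49 and 2.44 at 40 °C. With melatonin it was 11.9, 10.8 and 13.8 at 35 °C and 9.27, 10.4 and 9.24 at 40 °C. The 40 °C libraries without melatonin were the 3 lowest, and no other group overlapped them. On the log2 scale it differed by -2.07 ± 0.11 at 40 °C against 25 °C (edgeR, adjusted p = 3.32e-10) and 1.75 ± 0.11 with melatonin at 40 °C (adjusted p = 5.76e-09). The Myb-related gene Rhsim04G0086400 followed the same order, with 5.59 ± 0.338, 0.979 ± 0.207 and 4.89 ± 0.822 FPKM at 25 °C, 40 °C and 40 °C with melatonin (SD, n = 3). Of 18 vascular genes 17 were tested, with 6 higher and 8 lower at 40 °C against 25 °C (35.3% and 47.1%, against 37.3% and 38.6% of all tested genes). Their summed FPKM was 287 to 295 at 25 °C, 101 to 105 at 40 °C and 87.7 to 91.0 at 40 °C with melatonin, where MSTRG.11775 was nearly as high as at 25 °C. A single sieve element occlusion gene, MSTRG.14865, made up most of the sum at 25 °C, with means of 203, 0.55 and 16.2 FPKM in these groups. The phloem protein gene MSTRG.14278 went the opposite way at 40 °C, with 9.82, 51.7 and 4.20 FPKM, so the sum does not describe the vascular genes in general. None of the vascular genes was at 0 in all libraries, and their part in the APL level was not tested.

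EFM of Arabidopsis represses flowering and responds to temperature. The abundant EFM-like gene MSTRG.19796 (chromosome 11, 30351455 to 30355303, minus strand) was lower with melatonin at both temperatures. Its FPKM was 120.5, 123 and 127 at 25 °C, 142, 138 and 135 at 35 °C and 84.3, 86.3 and 84.4 at 40 °C. With melatonin the values were 99.8, 95.7 and 97.6 at 35 °C and 40.9, 39.4 and 40.7 at 40 °C. The libraries at 40 °C with melatonin were the lowest of the 15. The log2 fold change with melatonin was -0.61 ± 0.04 at 35 °C and -1.27 ± 0.04 at 40 °C (edgeR, adjusted p = 3.2e-08 and 7.69e-13), and the effects differed by -0.66 ± 0.05 (adjusted p = 6.75e-08). A second EFM-like gene, Rhsim08G0104100, also fell with melatonin at 40 °C, from 3.14 ± 0.721 to 0.402 ± 0.189 FPKM (SD, n = 3; edgeR, adjusted p = 1.7e-05). The EFM gene MSTRG.756 went from 3.85 ± 0.327 FPKM at 25 °C to 0.597 ± 0.0832 at 40 °C and 1.67 ± 0.132 at 40 °C with melatonin.

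**Figure D3:**
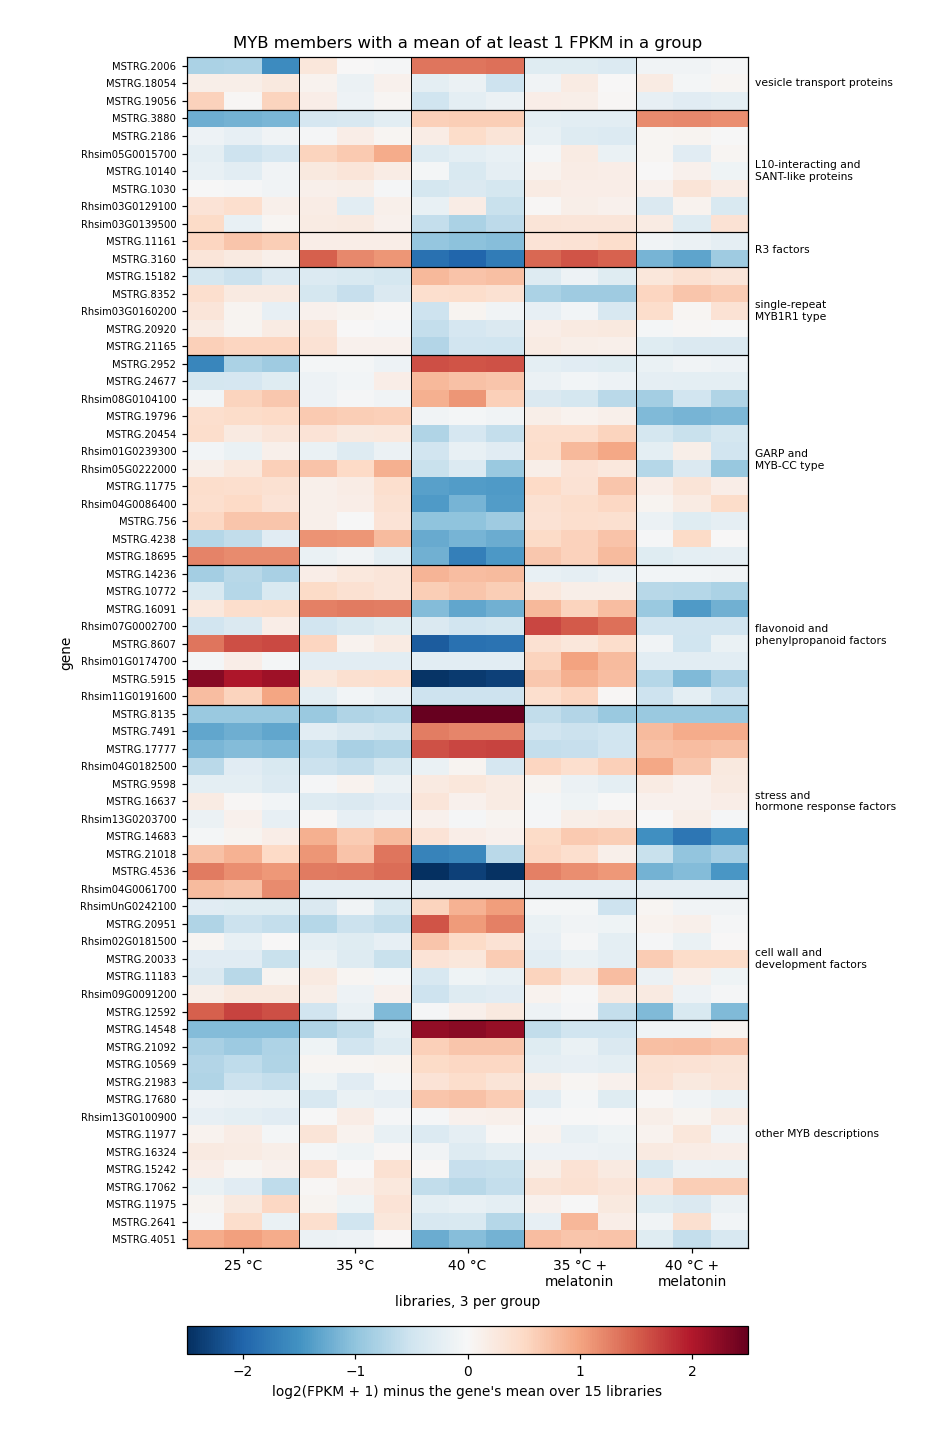
Relative levels of the 68 members with a mean of at least 1 FPKM in some group, shown by library as the difference of log2(FPKM + 1) from the member's mean over all 15 libraries, ordered by role. The highest group mean was at 40 °C in 20 members, at 25 °C in 16, at 35 °C with melatonin in 12, and at 35 °C and at 40 °C with melatonin in 10 each.

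The single-repeat MYB1R1 type holds several of the most abundant members. Of 6 genes 5 were tested, and 1 rose and 2 fell at 40 °C against 25 °C (20% and 40%, against 37.3% and 38.6% of all tested genes). The pair MSTRG.21165 and MSTRG.20920 fell at 40 °C, from 129 ± 2.97 to 59.3 ± 6.05 FPKM and from 119 ± 6.37 to 77.5 ± 6.56 (SD, n = 3; edgeR, adjusted p = 1.22e-08 and 3.95e-05). At 40 °C with melatonin they stood at 69.4 ± 1.31 and 106 ± 2.35 FPKM. Of the 5 tested genes, melatonin at 40 °C gave 1 higher and 1 lower (20% each, against 32.9% and 26.2% of all tested genes). At most 1 of the pair was therefore called higher. The counts of MSTRG.21165 summed to 11116 at 40 °C and 11743 with melatonin there. By contrast MSTRG.15182, annotated to the ethylene response, rose from 23.5 ± 1.61 to 55.3 ± 2.18 FPKM at 40 °C (edgeR, log2 fold change 1.33 ± 0.07, adjusted p = 9.17e-11) and had 40.6 ± 1.49 with melatonin there. The gene MSTRG.8352 was lower at 35 °C than at 25 °C and lower still with melatonin at 35 °C, with 8.95 ± 0.787, 4.90 ± 0.446 and 3.48 ± 0.180 FPKM, and was not called at 40 °C against 25 °C (edgeR, adjusted p = 0.103).

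Of 16 members placed in the cell wall and development group, 10 were tested, and 5 rose and 3 fell at 40 °C against 25 °C (50.0% and 30.0%, against 37.3% and 38.6% of all tested genes). At 40 °C with melatonin against without, 1 rose and 5 fell (10% and 50%, against 32.9% and 26.2% of all tested genes). A pair described as MYB29 and annotated to guard cell differentiation were both highest at 40 °C. In MSTRG.20951 (chromosome 12, 20818369 to 20824388, minus strand) the FPKM was 0.885, 1.16 and 1.08 at 25 °C, 0.919, 1.16 and 1.07 at 35 °C and 8.36, 5.63 and 6.55 at 40 °C. With melatonin it was 1.83, 1.98 and 1.94 at 35 °C and 2.36, 2.46 and 2.10 at 40 °C. The untreated 40 °C libraries were the 3 highest. Its log2 fold change was 2.80 ± 0.17 at 40 °C against 25 °C (edgeR, adjusted p = 1.08e-09) and -1.76 ± 0.16 with melatonin there (adjusted p = 2.88e-07). At 35 °C melatonin gave 0.76 ± 0.16 (edgeR, adjusted p = 0.00343), and the effects differed by -2.52 ± 0.23 (adjusted p = 4.55e-07). The other gene of the pair, RhsimUnG0242100, on an unplaced contig, had 0.230 ± 0.0132, 1.69 ± 0.438 and 0.466 ± 0.0762 FPKM at 25 °C, 40 °C and 40 °C with melatonin (SD, n = 3). Sequences of the pair were not compared, and reads may be split between them if they are close copies. The lignin-annotated MYB3-like gene MSTRG.20033 rose from 1.99 ± 0.332 to 4.20 ± 0.708 FPKM at 40 °C and had 4.53 ± 0.421 with melatonin there. The gene MSTRG.12592, annotated to root hair differentiation, had FPKM of 5.09, 5.91 and 5.57 at 25 °C and 0.551, 0.892 and 0 at 35 °C. The log2 fold change at 35 °C was -3.56 ± 1.12 (edgeR, adjusted p = 0.0163). At 40 °C its FPKM was 1.10, 1.34 and 1.56, below every library at 25 °C, though the fall was not called (edgeR, adjusted p = 0.101).

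L10-interacting and SANT-like proteins had the lowest share of calls at 40 °C among the role groups. In Arabidopsis the L10-interacting MYB protein represses genes of the translation machinery downstream of an immune receptor kinase. Of 16 members 11 were tested, 4 of which were called at 40 °C against 25 °C, 2 higher and 2 lower (18.2% each, against 37.3% and 38.6% of all tested genes). With melatonin at 40 °C, 3 rose and 1 fell (27.3% and 9.1%, against 32.9% and 26.2% of all tested genes). Several of the tested members had means under 1 FPKM at both 25 °C and 40 °C, where low counts limit calls. The best-counted unmerged ones, MSTRG.2186, MSTRG.1030 and MSTRG.10140, had means of 10.7, 10.8 and 7.13 FPKM at 25 °C and 15.2, 8.08 and 6.94 at 40 °C. The gene Rhsim03G0139500 fell from 2.65 ± 0.853 to 1.07 ± 0.146 FPKM (SD, n = 3; edgeR, adjusted p = 0.000583). A rise in MSTRG.3880, from 5.24 to 20.5 FPKM, belongs to a locus that merges this gene with a neighbour of another description, so the counts of each cannot be told apart.

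Of 17 members with no more specific annotation 15 were tested, and 7 rose and 5 fell at 40 °C against 25 °C (46.7% and 33.3%, against 37.3% and 38.6% of all tested genes). Of the same 15, melatonin at 40 °C gave 3 higher and 5 lower (20% and 33.3%, against 32.9% and 26.2% of all tested genes). They included MSTRG.4051 (chromosome 2, 43001497 to 43004211, plus strand), a Myb-related gene that fell with heat and was higher with melatonin. Its FPKM was 110.3, 118 and 109.9 at 25 °C, 51.6, 52.1 and 57.9 at 35 °C and 23.6, 26.8 and 24.7 at 40 °C. With melatonin it was 98.2, 93.1 and 95.1 at 35 °C and 46.3, 37.4 and 43.4 at 40 °C. No 2 of the groups at 25 °C, 35 °C and 40 °C overlapped, and at each heat temperature the melatonin libraries lay above the untreated ones. Melatonin gave a log2 fold change of 0.72 ± 0.07 at 35 °C and 0.57 ± 0.07 at 40 °C (edgeR, adjusted p = 5.49e-06 and 1.01e-05), and heat gave -1.13 ± 0.07 and -2.08 ± 0.08 against 25 °C (adjusted p = 1.4e-08 and 2.79e-12). The Myb-like gene MSTRG.15242, among the 8 most abundant members, went from 62.7 ± 2.35 FPKM at 25 °C to 45.8 ± 11.7 at 40 °C (SD, n = 3). The Myb-related gene MSTRG.17062 was highest with melatonin at 40 °C, at 3.56 ± 0.511 FPKM against 1.03 ± 0.0678 without (edgeR, adjusted p = 1.3e-05). Of the 3 vesicle transport genes, the merged locus MSTRG.2006 rose from 26.1 ± 7.69 FPKM at 25 °C to 137 ± 1.88 at 40 °C and had 50.8 ± 1.45 with melatonin there. Without these 3 genes, 62 of 83 tested members were called at 40 °C against 25 °C and 46 with melatonin at 40 °C. These are 74.7% and 55.4%, against 75.9% and 59.1% of all tested genes.

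In 2 clusters of neighbours most members were counted almost only at 25 °C, at low levels. On chromosome 4, between 9521476 and 9587779, Rhsim04G0061500, Rhsim04G0061700 and Rhsim04G0061800 lie within 100 kb, and their descriptions are MYB13-like, Myb-related and MYB14-like. Rhsim04G0061700 had FPKM of 1.02, 0.945 and 1.66 at 25 °C and no counts in any other library. The others, Rhsim04G0061500 and Rhsim04G0061800, had means of 0.460 and 0.0593 FPKM at 25 °C and no counts at 35 °C or 40 °C without melatonin. With melatonin at 35 °C they had 10 and 4 counts over 3 libraries. Rhsim04G0061800 was not tested, and its FPKM at 25 °C was 0, 0 and 0.178. On chromosome 6, between 25678825 and 25693310, the pair Rhsim06G0153700 and Rhsim06G0153800 had means of 0.333 and 0.338 FPKM at 25 °C and no counts elsewhere. All 5 genes are thus listed at under 2 FPKM even at 25 °C, and a low level in heat below the counting floor was not detectable at this depth. The MYB18 pair on chromosome 7, MSTRG.11975 and MSTRG.11977, lay 22.7 kb apart and had means between 3.45 and 5.85 FPKM. The first was lower at 40 °C against 25 °C, with a log2 fold change of -0.54 ± 0.15 (edgeR, adjusted p = 0.00471), and the second was not called (adjusted p = 0.26).

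**Figure D4:**
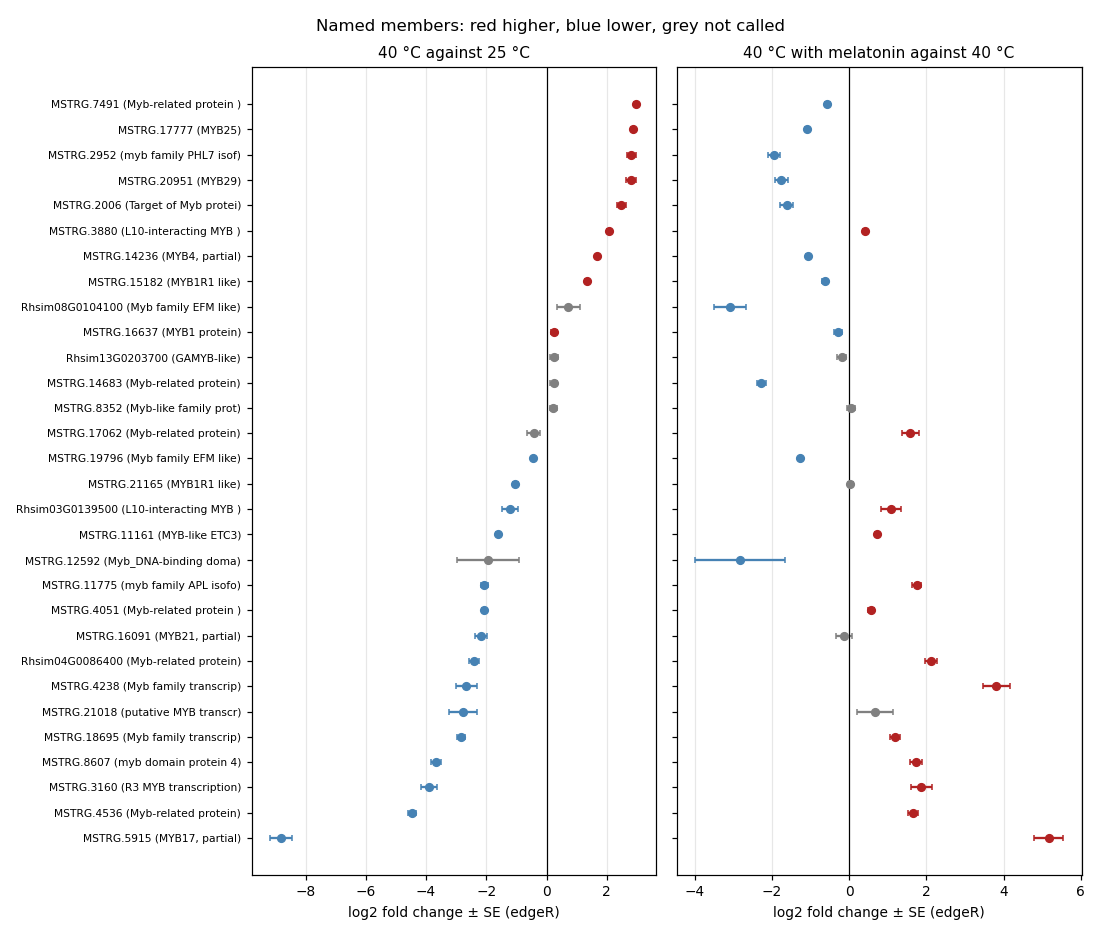
Log2 fold change (edgeR, bars show the standard error) at 40 °C against 25 °C and with melatonin at 40 °C for 30 named members, ordered by the first. The untreated 40 °C libraries enter both values, so opposite signs, where they occur, share an error. 3 named members with a group at 0 counts are left out.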

How the data were processed

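Leaf polyA RNA of 15 libraries was measured in 1 deposited table. Per the submitters' processing notes, the tools included StringTie 1.3.4d, HISAT2 2.0.4 and cutadapt 1.9, whose roles are not stated. Per the file headers, the authors deposited a count and an FPKM value per gene and library. The deposited counts are unnormalized whole numbers. Even numbers made up 58.8 to 63.0% of counts between 1 and 20, so mates of a fragment may each have been counted. The authors' FPKM values are scaled to length and depth by the authors. From the series design, CK in a column name was taken to mean no melatonin and MT melatonin, and 6 value columns that match no labelled sample were not used. Neither the counting strand nor the genome build is stated, and overlapping genes were not separated. Of the members, 4 are loci that merge several gene names.

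All 29985 genes were fitted together with edgeR 4.0.16 in R 4.3.3 (TMM scaling, filterByExpr, 5 group means, 10 residual degrees of freedom, quasi-likelihood test, two-sided). P-values were adjusted by Benjamini-Hochberg over the 26183 tested genes of each comparison, and calls were made at 0.05. Values after ± are SD of 3 libraries for FPKM and standard errors for log2 fold changes. Folds against a group at 0 used a floor of 3 counts per library, which covers counting error only. The tests were checked on simulated counts. Alternatives were median-of-ratios scaling, no count filter, DESeq2 1.42.0, limma 3.58.1 on log2(FPKM + 1) and log2(FPKM + 0.1) of genes with a mean of at least 1 FPKM in a group, fits restricted to the compared groups, a replicate block, leaving out each library, and leaving out merged loci or vesicle transport genes.

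The members and gene lists were chosen with earlier results of these data known. Role groups come from words in the description and in the GO and KO columns, and were made after values had been seen. Each member was placed only in the first group that matched, so a group does not hold all members with its terms. Genes named by rule are the 5 largest called rises and falls per pairwise comparison with a mean of at least 2 FPKM in the higher group and no overlap in TMM-scaled counts, the 5 smallest adjusted p for the difference of melatonin effects, the 8 highest members and the extremes of each list class. Other genes named were chosen after their values were seen. No test over a list was made.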

Additional observations from a re-analysis of the deposited data

Results flagged for a closer look

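In 5 members the melatonin effect at 40 °C differed from that at 35 °C by the test of the difference itself, and these had the smallest adjusted p among the members. All values are log2 differences from edgeR over 3 libraries per group, the effect at 40 °C minus that at 35 °C. For MSTRG.17777 (MYB25) the difference was -1.17 ± 0.07 (adjusted p = 2.97e-09), with the 3 melatonin libraries below the untreated ones in FPKM at 40 °C and above them at 35 °C, where the difference was not called (adjusted p = 0.304). For MSTRG.19796 (EFM-like) it was -0.66 ± 0.05 (adjusted p = 6.75e-08), with the melatonin libraries lower at both temperatures. In MSTRG.14683, annotated to wax synthesis, it was -1.98 ± 0.16 (adjusted p = 1.2e-07). In MSTRG.20951 (MYB29) it was -2.52 ± 0.23 (adjusted p = 4.55e-07), with a rise at 35 °C and a fall at 40 °C. In MSTRG.4536, annotated to stomatal movement, it was 1.93 ± 0.18 (adjusted p = 5.56e-07), the only positive one of the 5. No cause was tested.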

How the results depend on the processing

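Counts of called members, in all and by direction, stayed within 1.5 times under all 126 settings that left out 1 library and under 159 of 162 others. The exceptions were for melatonin at 35 °C, where 7 members were higher and 12 lower. The higher count was 14 with limma on log2(FPKM + 1) and 12 on log2(FPKM + 0.1), and the lower count was 7 on log2(FPKM + 0.1). On the first of these scales the median of all genes moved from 0.10 to 0.23 for melatonin at 40 °C and from -0.07 to -0.18 at 40 °C against 35 °C, so small differences there depend on the scaling. With 1 library left out, 61 to 63 members were called at 40 °C against 25 °C, 14 to 17 with melatonin at 35 °C and 41 to 45 with melatonin at 40 °C.

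Of 823 alternative values for the named members, 807 kept direction and call, 15 lost the call, 1 gained it and 0 turned. The 15 concern 3 results: MSTRG.2006 with melatonin at 35 °C (adjusted p 0.0532 to 0.138 where lost), MSTRG.16637 at 40 °C against 25 °C (adjusted p 0.0612 to 0.126) and MSTRG.16091 with melatonin at 35 °C.

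Replicate numbers did not pair the libraries: over 30 pairs with the same number, correlations of deviations from group means were -0.14 to 0.08, and 0 were above 0.1. With the replicate block, 38 members were called at 35 °C against 25 °C, 60 at 40 °C against 25 °C and 58 at 40 °C against 35 °C. The block gave 17 and 43 for melatonin at 35 °C and 40 °C, and 40 for the difference. Depth limits members under 1 FPKM, where folds are bounds or imprecise.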

Other observations

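Some members without a specific annotation rose at 40 °C and stayed near that level with melatonin. The Myb-like gene MSTRG.21092 had 5.71 ± 0.312 FPKM (SD, n = 3) at 25 °C, 17.8 ± 0.708 at 40 °C and 18.9 ± 0.397 at 40 °C with melatonin. Its log2 fold change was 1.73 ± 0.10 at 40 °C against 25 °C (edgeR, adjusted p = 7.55e-10) and -0.10 ± 0.10 with melatonin (adjusted p = 0.387). The Myb-like genes MSTRG.10569 and MSTRG.21983 had 9.78 ± 0.500 and 18.7 ± 1.49 FPKM at 25 °C, 23.9 ± 0.360 and 38.4 ± 1.70 at 40 °C, and 21.4 ± 0.526 and 36.5 ± 1.64 with melatonin there, where both were called lower by a small step (log2 fold change -0.35 ± 0.04 and -0.26 ± 0.07, edgeR, adjusted p = 2.33e-06 and 0.00593). By contrast, the single myb histone gene MSTRG.17680, of a family known in maize to bind telomere repeats, had 8.46 ± 0.0918 FPKM at 25 °C, 15.9 ± 0.564 at 40 °C and 8.98 ± 0.723 at 40 °C with melatonin. It was called at 40 °C against 25 °C (edgeR, adjusted p = 1.93e-07) and with melatonin there (log2 fold change -1.01 ± 0.09, adjusted p = 3.42e-07). In the merged locus MSTRG.3880 the level at 40 °C was higher still with melatonin, at 30.9 ± 0.344 FPKM against 20.5 ± 0.123 (edgeR, adjusted p = 1.56e-06). These genes were chosen after their values were seen.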
